A study of Mus musculus with 34 samples.

Results

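The mitochondrial-genome features of the array are the spots whose annotation entry names ND6, COX2, ATP8 and ATP6 together. They were found by their annotation alone, as all features with several gene symbols of which the first is ND6, and made up 82 of the 1200 features in each of the 2 value tables of the series (6.83%). All 82 refer to 1 sequence entry, which covers the mouse mitochondrial genome as a whole. Which mitochondrial transcript a single feature holds is therefore not given in the sources used here, and the features are called by their number in the table. In addition, 11 features of each table were annotated to ATP6 alone and 8 to COX2 alone, and these were used for comparison.

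The mitochondrial genome is a small circular DNA that cells carry in many copies. RefSeq lists 37 genes on it in the mouse, of which 13 code for proteins, 22 for transfer RNAs and 2 for ribosomal RNAs. All of the proteins are subunits of the respiratory chain or of ATP synthase, which make most of the ATP of oxidative muscle fibres. ND6 is a subunit of complex I, COX2 carries a copper centre of cytochrome c oxidase, and ATP8 and ATP6 belong to the membrane part of ATP synthase. Mitochondrial genes are transcribed as long precursors that are cut apart at the transfer RNA genes, while most respiratory-chain subunits are made from nuclear genes and imported.

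The study compared muscles of mdx mice, which lack dystrophin and whose fibres degenerate and regenerate, with muscles of BL10 mice, the strain with dystrophin. Total RNA of diaphragm or hindlimb was hybridised to 34 2-colour arrays. The 8 groups were untreated BL10 diaphragm, untreated mdx diaphragm, untreated BL10 hindlimb, untreated mdx hindlimb, and the same 4 combinations from mice given L-arginine, the substrate of nitric oxide synthases. Ages were 3, 5, 9 and 12 weeks with 1 array per group and age, apart from a pair of 12-week arrays (Sample 1 and Sample 2) in either untreated mdx group.

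Each value is a ratio of the 2 channels of an array, given here as log2. By its label, channel 1 was 12-week RNA of the same strain and channel 2 the age in the title. For treated arrays it is not stated whether the 12-week RNA was from treated or untreated mice, so an L-arginine value can be a ratio of ages alone or of age and treatment together. Channel 2 over channel 1 is the likely direction of the ratio, which no source used here states. With the ratio turned, the log2 values and differences below change sign, and the correlations do not. Ratios carry no expression level, so neither the tissue labels nor the abundance of mitochondrial RNA could be checked. Fewer mitochondria, fewer muscle fibres in the sample and less RNA per mitochondrion cannot be told apart in such bulk RNA. Nothing in the labels ties arrays to separate animals, so the p-values rest on array-to-array spread alone, part or all of which may be technical. All treated arrays form 1 table and all untreated arrays another, on different platforms, and treatment and table cannot be told apart.

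There were 18 untreated and 16 L-arginine arrays. Median ratios over all features ran from 0.73 to 1.08 on untreated and from 0.94 to 1.22 on treated arrays. Between 0 and 225 features of an untreated array and between 2 and 36 of a treated array had a value of 0 or below, which has no log2 and was left out. Of the 82 members, 62 had a value on every untreated array and 80 on every treated array. All 82 passed the filter of a value on at least 75% of arrays in both tables. Most gaps lay in untreated BL10 hindlimb, where 66 members had a value at 3 weeks and 76 at 12 weeks. Untreated arrays of one strain correlated no lower than r = -0.19 over all features and those of different strains as low as -0.41. For 1 array, titled as treated BL10 hindlimb of 9 weeks, the channel labels read mdx. Its title decided its group, and the member results without it are among the alternatives.

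In untreated mice the member medians furthest from 0 were those of the youngest mdx arrays, 1 per muscle and in opposite directions. In mdx diaphragm the median log2 ratio over the members was 0.79 at 3 weeks (a ratio of 1.73), -0.04 at 5 weeks, 0.01 at 9 weeks, and -0.16 and -0.02 on Sample 1 and Sample 2 at 12 weeks. In mdx hindlimb it was -0.39 at 3 weeks, -0.14 at 5 weeks, -0.04 at 9 weeks and 0.02 on both 12-week arrays. The diaphragm value at 3 weeks lay above all others of its group, and the hindlimb values came closer to 0 at each later age. At 3, 5 and 9 weeks each of these groups has 1 array, and the steps between ages within a group were not tested.

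**Figure D1:**
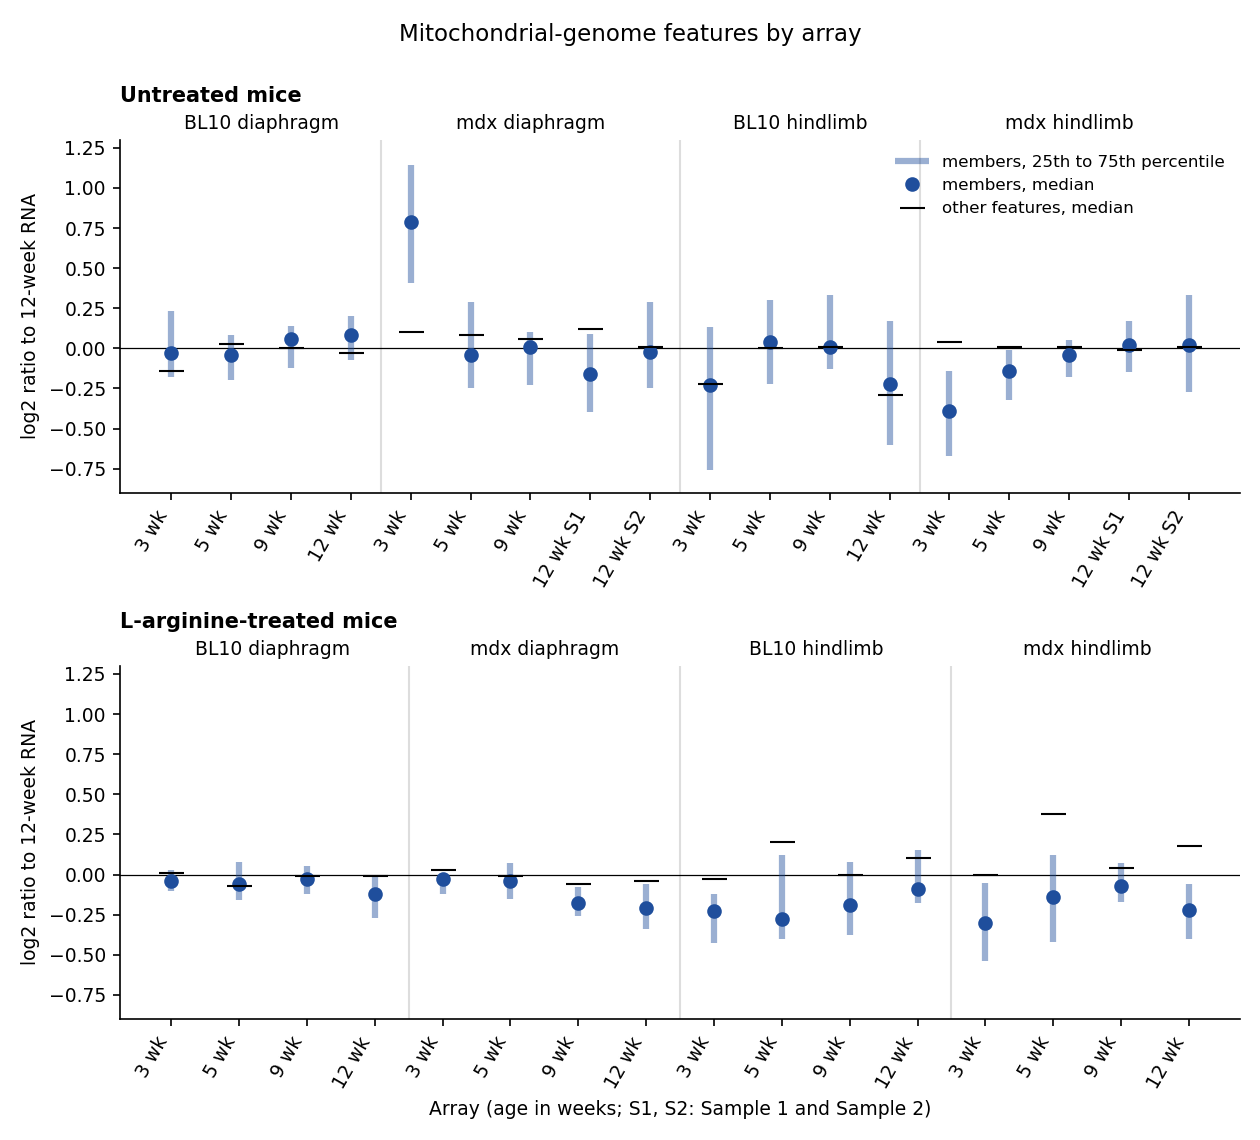
Median log2 ratio of the 82 mitochondrial-genome features on each array (points), with the 25th to 75th percentile over members (bars) and the median of the other features (dashes), by group and age. The untreated mdx diaphragm array at 3 weeks lies at 0.79, and all 16 medians of L-arginine-treated mice lie below 0.

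BL10 muscle of untreated mice showed smaller values in the diaphragm and more scatter in the hindlimb. In BL10 diaphragm the member medians were -0.03, -0.04, 0.06 and 0.08 at 3, 5, 9 and 12 weeks. In BL10 hindlimb they were -0.23, 0.04, 0.01 and -0.22 at those ages. The median of the other features was -0.22 at 3 weeks and -0.29 at 12 weeks on these hindlimb arrays, so both members and other features were low there.

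To set the members apart from a shift of the whole array, the median of the other features was subtracted. The 6 untreated 12-week arrays, whose channels both carry the 12-week label, gave differences from -0.28 to 0.11. Of the 12 younger untreated arrays, 1 lay above that range and 1 below it. These were the 3-week arrays of mdx diaphragm, at 0.69, and of mdx hindlimb, at -0.43. The other 10 differences of younger arrays were within the span of the 12-week arrays. In all, members lay below the other features on 9 of 18 untreated arrays, above on 8 and level on 1.

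The 3-week mdx diaphragm array carried the higher ratios across most of the set. Of 82 members, 77 had a log2 ratio above 0, 73 lay above the median of the other features (89%), and 28 lay above 1 (34.1%, against 13.8% of the other features). Members ran from -1.06 to 3.70 there. The top members were feature 964, at 3.70, and its neighbour in the table, feature 963, at 3.54. Feature 962, next to feature 963, read 2.56. Whether their place on the array adds to these values was not tested. On the same array the ATP6 features had a median of 1.36 and the COX2 features 0.83. With a running median over 51 neighbours in the table's order subtracted, the member median of this array was 0.60.

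Muscle fibre genes moved with the members on that array. Of 18 measured fibre markers, among them those of the contractile apparatus and its calcium pump, 17 lay above the other features, by a median of 0.63. On the other 17 untreated arrays the median of these markers ran from -0.35 to 0.13. Of 11 measured nuclear genes of the respiratory chain and ATP synthase, 8 lay above the other features on the 3-week mdx diaphragm array, by a median of 0.21. The 4 macrophage markers had a median of 0.03 and the 7 matrix markers 0.07. The part of the fibre content in the member values was not tested.

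On the 3-week mdx hindlimb array the low ratios were spread over most of the set. There 66 of 82 members had a log2 ratio below 0, and 11 lay above the median of the other features (13.4%). Members ran from -1.12 (feature 39) to 0.45 (feature 572), and 1 member lay below -1. The ATP6 features had a median of -0.18 and the COX2 features -0.12. The fibre markers had a median of 0.04 relative to the other features, with 10 of 18 above them.

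Under L-arginine the member medians were slightly below 0 on every array. In treated BL10 diaphragm the member medians were -0.04, -0.06, -0.03 and -0.12 at 3, 5, 9 and 12 weeks, and in treated mdx diaphragm they were -0.03, -0.04, -0.18 and -0.21. In treated BL10 hindlimb they were -0.23, -0.28, -0.19 and -0.09, and in treated mdx hindlimb -0.30, -0.14, -0.07 and -0.22. All 16 medians were below 0, against 10 of 18 in the untreated table.

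Relative to the other features, treated members lay lower on 15 of 16 arrays, the exception being BL10 diaphragm at 5 weeks with 0.02. The gap was wider in hindlimb, with values from -0.53 to -0.12 on 8 of 8 arrays, than in diaphragm, where they ran from -0.17 to 0.02. The group mean was -0.26 ± 0.14 (SD, n = 4) in BL10 hindlimb and -0.34 ± 0.17 (SD, n = 4) in mdx hindlimb, and -0.04 ± 0.05 (SD, n = 4) and -0.09 ± 0.06 (SD, n = 4) in BL10 and mdx diaphragm. Part of the hindlimb gap came from the other features, whose median was 0.20 on the BL10 and 0.38 on the mdx array at 5 weeks and 0.18 on the mdx array at 12 weeks. The 4 treated 12-week arrays spanned -0.39 to -0.11, and of the 12 younger treated arrays 5 lay above that range and 2 below it.

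The ratios of markers of other cells also differed between some of these groups. By the labels each ratio is to RNA of the same strain, so a difference between strains does not compare expression levels. In treated hindlimb the ratios of 4 of 9 macrophage and 2 of 9 matrix features were called higher in mdx than in BL10 (limma). Of all features 1.76% were called there in either direction. In treated diaphragm no macrophage or matrix feature was called, with 5 macrophage and 4 matrix features at an unadjusted p under 0.05. By array, the median of the macrophage markers lay above the other features by 0.71 to 1.08 in treated mdx hindlimb and by 0.63 to 1.06 in treated mdx diaphragm. In treated BL10 hindlimb they ran from -0.38 to 0.13 and in treated BL10 diaphragm from -0.05 to 0.51. Matrix markers ran from 0.76 to 1.54 in treated mdx hindlimb and from 0.11 to 0.92 in treated BL10 hindlimb. The 2 measured adipocyte markers ran from -0.60 to 0.21 over the 16 treated arrays, and 0 of their 4 features were called between strains, with 1 in diaphragm and 2 in hindlimb at an unadjusted p under 0.05. The median of the fibre markers lay between -0.11 and 0.13 on these arrays, while single fibre features went in both directions. Between hindlimb and diaphragm of treated mdx mice 0 of 49 were called and 19 had an unadjusted p under 0.05, and between strains in treated hindlimb 0 were called and 10 had one. What the other cells add to the member values was not tested. No erythrocyte, neutrophil or T cell marker of the lists was measured.

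The members lay closer together than the other features as a whole, as repeated features of 1 gene did too. On 16 of 16 treated arrays and 15 of 18 untreated arrays the interquartile range over members was smaller than over the other features. The median range was 0.27 against 0.58 in the L-arginine table and 0.47 against 0.52 in the untreated table. Some sets of features for 1 gene were tighter still in the L-arginine and untreated tables. Their median ranges were 0.16 and 0.28 for ATP6, 0.20 and 0.26 for Pvalb and 0.24 and 0.38 for Atp2a1. The COX2 features, at 0.43 and 0.42, were wider than the members under L-arginine and slightly tighter in the untreated table. The member range was smallest, at 0.13, in BL10 and mdx diaphragm of treated mice at 3 weeks. On the 3-week mdx hindlimb, the 9-week BL10 hindlimb and the Sample 2 mdx diaphragm arrays of untreated mice the members were the wider set.

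**Figure D2:**
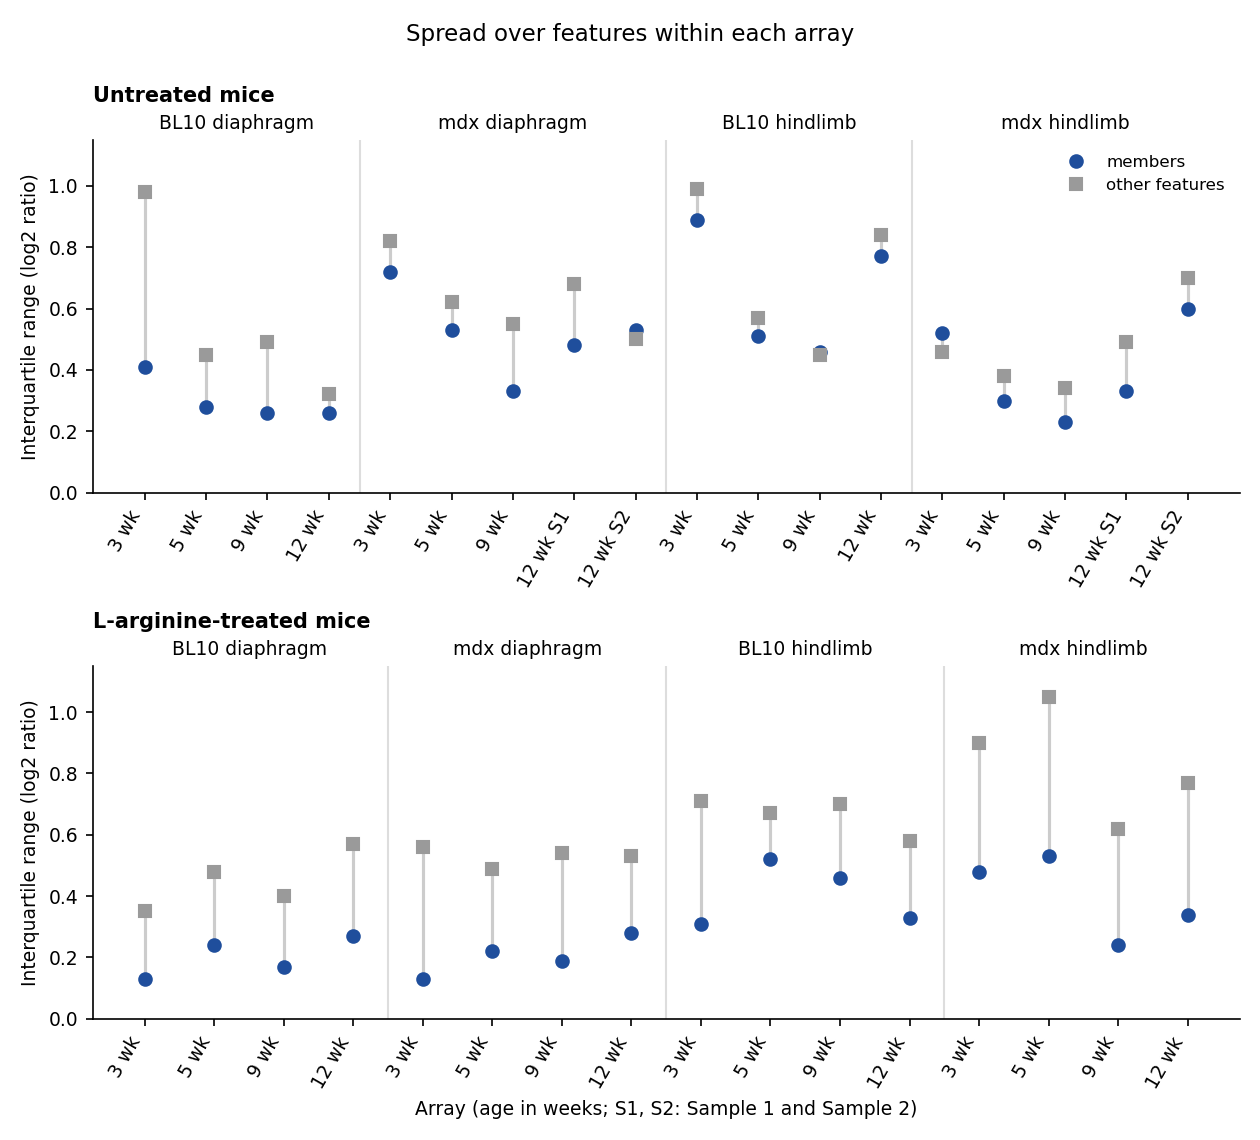
Interquartile range of log2 ratios over the mitochondrial-genome features (circles) and over the other features (squares) on each array. Circles lie below squares on all 16 treated arrays and on 15 of 18 untreated arrays.

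Across arrays, pairs of members had a median Pearson r of 0.26 over the 18 untreated arrays, with 76.2% of 3321 pairs above 0. In the L-arginine table the median was 0.29 over 16 arrays, with 74.7% above 0. Pairs of other features had a median of -0.01 in both tables, and pairs of a member and another feature 0.00. The 6 features of Pvalb, the calcium-binding protein of fast fibres, reached 0.62 and 0.71. The 12 features of Atp2a1, the calcium pump of fast fibres, had 0.32 untreated and 0.09 under L-arginine, the second below the members' value. In the untreated table the member correlation rested in part on the youngest mdx arrays. It was 0.14 without the 3-week mdx diaphragm array and 0.07 without that array and the 3-week mdx hindlimb array. These correlations describe the arrays and share whatever affects an array as a whole.

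ATP6 followed the members more closely than COX2 did. The median r between a member and an ATP6 feature was 0.35 untreated and 0.36 in the L-arginine table, against 0.17 and 0.05 for COX2 features. ATP6 features lay on the same side of the other features as the members on 15 of 16 treated arrays and COX2 features on 6. In the untreated table the counts were 10 and 13 of 18, so the order was the other way there. The ATP6 features correlated among themselves (median r 0.34 and 0.38), while the 8 COX2 features did not, with a median r of 0.01 in each table. Under L-arginine the COX2 median lay above the ATP6 median on 15 of 16 arrays, against 8 of 18 untreated arrays. ATP6 and COX2 lie close together on the mitochondrial genome, with ATP8, which overlaps ATP6, between them.

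**Figure D3:**
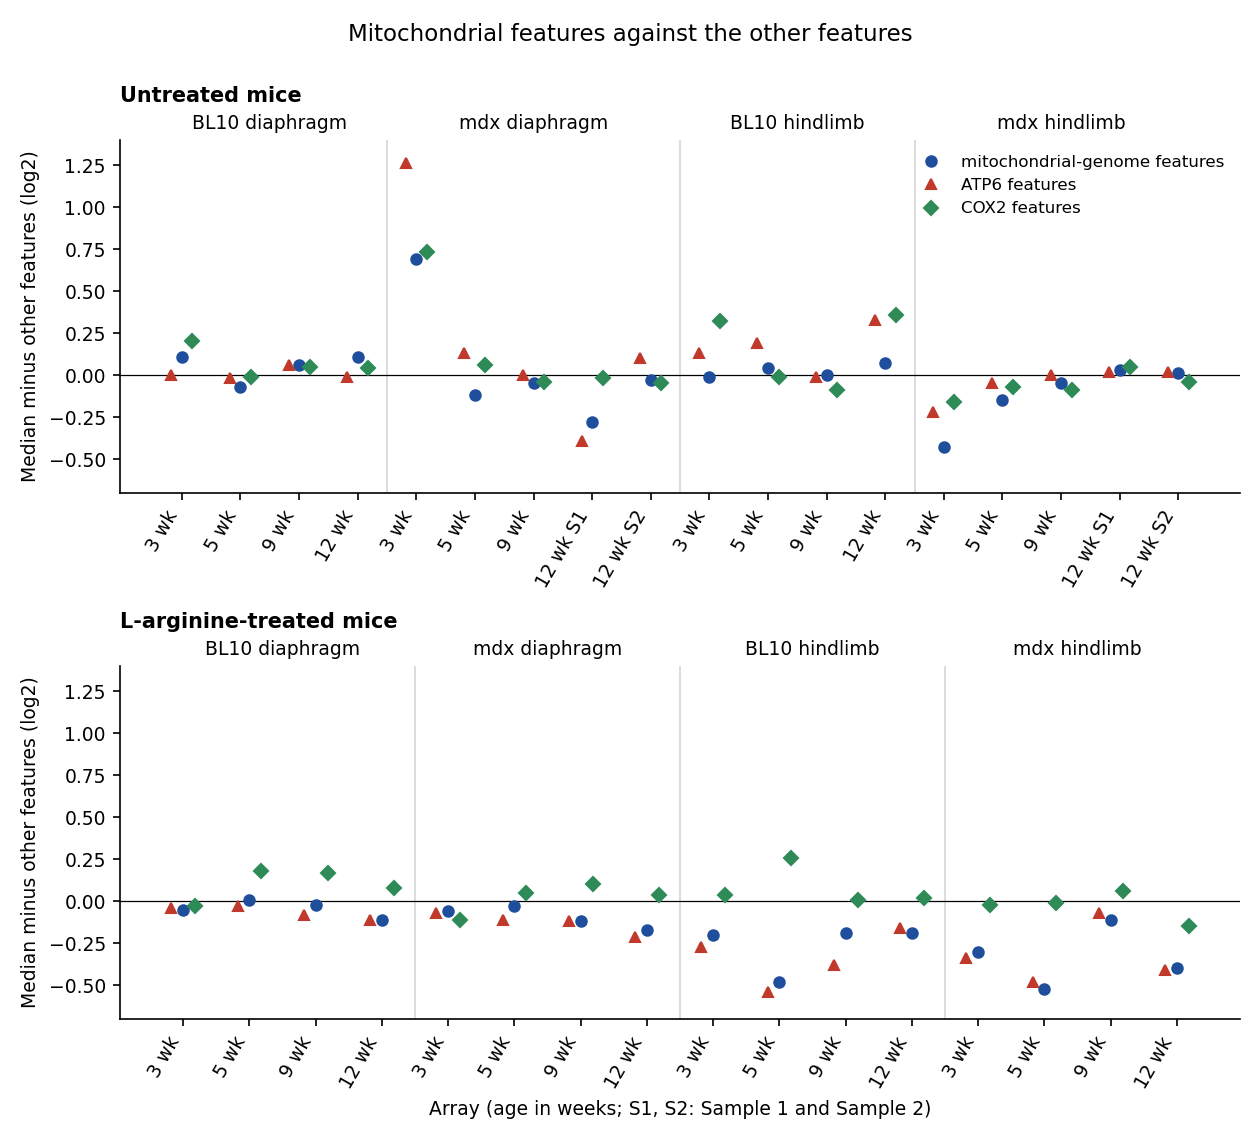
Median log2 ratio of the mitochondrial-genome features (circles), of the features annotated to ATP6 alone (triangles) and to COX2 alone (diamonds), each minus the median of the other features, by array. On 15 of 16 treated arrays COX2 lies above ATP6, and on the untreated mdx diaphragm array at 3 weeks all 3 lie above 0.

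Among genes with a single symbol, those whose pattern over arrays was most like the member median were named by Pearson r after subtracting the other features. Over 18 untreated arrays and 637 genes they were ATP6 (0.91), Ckmt2, the creatine kinase of muscle mitochondria (0.77), Oaz1, the ornithine decarboxylase antizyme (0.76), Mb, the oxygen-binding protein myoglobin (0.74), and Slc12a4, a potassium-chloride cotransporter (0.74). COX2 ranked 10th, at 0.70. Without the 3-week mdx diaphragm array ATP6 and Ckmt2 kept the top places with 0.74 each, followed by Serpinc1 (0.70), Decr1 (0.68) and Mb (0.67), and COX2 came to 0.48.

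Over 16 treated arrays and 633 genes the list was Cfl2, the muscle cofilin (0.93), ATP6 (0.86), Tmed7 (0.84), Mb (0.84) and Oaz1 (0.82), with COX2 at rank 126 (0.42). ATP6, Mb and Oaz1 were thus among the 5 most alike in both tables over all arrays. Without the 3-week mdx diaphragm array Oaz1 was no longer among the 5 in the untreated table. The 11 measured nuclear genes of the respiratory chain and ATP synthase had a median r with the members of 0.19 untreated and 0.34 under L-arginine. For the 18 fibre markers, Mb included, the medians were 0.21 and 0.43, and the first fell to -0.05 without the 3-week mdx diaphragm array.

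The comparison of strains asked whether the ratios of mdx and BL10 muscle differed within each tissue. It was made with limma over all features of a table that passed the filter, with group and age as terms, and a feature was called at a Benjamini-Hochberg adjusted p under 0.05. In untreated diaphragm 0 of 82 members were called, and 0% of all 1189 features tested. No member reached an unadjusted p under 0.05, against 104 of all features. The median difference, mdx minus BL10, was 0.10 over members and 0.16 over the other features, and the first became -0.11 without the 3-week mdx diaphragm array.

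In untreated hindlimb 0 members were called as well (0.0841% of all features), and 12 of 82 had an unadjusted p under 0.05 (14.6%, against 11.8% of all features). The member median was -0.05 and that of the other features 0.17. Without the 3-week mdx hindlimb array the member median was 0.09. Feature 89 had the largest drop. Its log2 ratios were 3.15, 0.90 and 0.51 in BL10 at 5, 9 and 12 weeks. In mdx hindlimb they were -0.94, -0.43, -0.34, 0.07 and -0.40. The 3-week BL10 array had no positive value and was left out of the fit of this feature. The groups did not overlap, and the difference was -1.90 ± 0.46 SE with an adjusted p of 0.178 (limma). With the missing value set to the lowest positive value of its array the difference was 0.07. Feature 39 followed, at 1.01, 0.11, -0.20 and 0.43 in BL10 and -1.12, -0.47, -0.54, 0.16 and -0.97 in mdx, with overlap between the groups and a difference of -0.96 ± 0.30 SE (adjusted p 0.366).

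Under L-arginine 0 members were called in diaphragm (0% of 1192 features), where 0 members and 38 of all features had an unadjusted p under 0.05. The member median of the difference was -0.05. In hindlimb 0 members were called while 1.76% of all features were, and 9 members had an unadjusted p under 0.05 (11%, against 18.7% of all features). The median difference was -0.01 over members and 0.10 over the others. Feature 547 had log2 ratios of -0.15, -0.18, 0.81 and 0.90 in BL10 and -0.43, -0.69, -0.49 and -0.23 in mdx at 3, 5, 9 and 12 weeks. All mdx values lay below all BL10 values, and the difference was -0.80 ± 0.23 SE (adjusted p 0.0923). The BL10 value of 0.81 came from the 9-week array whose channel labels read mdx. Feature 870 read 0.25, -0.10, -0.32 and -0.14 in BL10 and -0.45, -0.32, -0.76 and -1.15 in mdx. Its groups met at -0.32, in BL10 the value of that same 9-week array, with a difference of -0.59 ± 0.17 SE (adjusted p 0.0923). With the running median over neighbours subtracted, 4 members were called lower in mdx in this comparison. The share of all features called under that setting was not recorded.

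Between tissues the member ratios were lower in hindlimb than in diaphragm by their medians, again with no call. These differences compare ratios to 12-week RNA and not expression levels of the tissues. In untreated BL10 mice the median, hindlimb minus diaphragm, was -0.09 over members and -0.10 over others, with 0 members and 0.0841% of all features called and 10 members (12.2%, against 10.1% of all features) at an unadjusted p under 0.05, and the member median was 0.01 without the 3-week BL10 hindlimb array. In untreated mdx mice it was -0.24 against -0.09, with 72 of 82 members below 0. Here 0 members and 0% of all features were called, with 4 members and 44 features at an unadjusted p under 0.05, and the median was 0.00 without the 3-week mdx diaphragm array. Feature 426 was the first by p, at 1.12, -0.15, 0.03, -0.20 and 0.36 in mdx diaphragm and -0.92, -0.38, -0.54, -0.27 and -0.18 in mdx hindlimb. Its difference of -0.69 ± 0.28 SE had an adjusted p of 0.995. Feature 745 led in BL10, with a mean of -0.87 ± 0.67 (SD, n = 4) in hindlimb against 0.18 ± 0.37 (SD, n = 4) in diaphragm (adjusted p 0.423).

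Treated mice showed the widest gap between members and other features in this comparison. In treated BL10 mice the members' median, hindlimb minus diaphragm, was -0.11 and that of the others 0.10. The calls were 0 among members and 0% of all features, and 6 members had an unadjusted p under 0.05 (7.32%, against 12.2% of all features). In treated mdx mice the medians were -0.09 and 0.22. Although 1.26% of all features were called, 0 members were, and 11 members (13.4%) against 23.7% of all features had an unadjusted p under 0.05. Some single members ran opposite to the set. Feature 1053 had log2 ratios of 0.01, 0.14, 0.04 and 0.00 in mdx diaphragm and 0.82, 1.45, 0.36 and 0.41 in mdx hindlimb. All hindlimb values lay above all diaphragm values, and the difference of 0.71 ± 0.18 SE had the smallest adjusted p of any member within a table, 0.0651. Feature 1144 was the next, with a mean of 0.68 ± 0.72 (SD, n = 4) in mdx hindlimb against -0.04 ± 0.25 (SD, n = 4) in mdx diaphragm (adjusted p 0.121). Feature 1105 was high in treated BL10 hindlimb, at 0.37 ± 0.50 against -0.39 ± 0.25 (SD, n = 4 each) in diaphragm (adjusted p 0.267).

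The difference of the strain differences between hindlimb and diaphragm was tested by an interaction term, and 0 members were called in either table (0% of all features in both). At an unadjusted p under 0.05 there were 3 members untreated and 2 under L-arginine, among 57 and 92 of all features. The member medians were -0.16 and 0.05. The opposite signs of the 3-week mdx arrays of diaphragm and hindlimb thus did not carry over to a called difference over all ages, and the untreated median became 0.09 without the 3-week mdx diaphragm array.

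Ages were compared with 12 weeks, with the 4 groups of a table as replicates. In untreated mice 0 members were called at 3, 5 or 9 weeks, and 0% of all features at each age. Unadjusted p-values under 0.05 were found for 4, 0 and 1 members, and for 89, 34 and 36 of all features. The member median at 3 weeks was 0.12 against -0.03 over the others, and it was -0.20 without the mdx diaphragm array of that age, 0.33 without the mdx hindlimb array and -0.03 after quantile normalisation. The smallest p was that of feature 962, which lies beside features 963 and 964, the top members of the 3-week mdx diaphragm array. It had 2.56 in mdx diaphragm at 3 weeks and -0.25, 1.19 and 0.10 in BL10 diaphragm, BL10 hindlimb and mdx hindlimb (difference 0.97 ± 0.40 SE, limma, adjusted p 0.589).

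In treated mice 0 members were called at 3, 5 or 9 weeks, and 0% of all features at each age. The counts at an unadjusted p under 0.05 were 2, 10 and 0 members, among 72, 110 and 33 of all features. The medians were -0.01, -0.02 and 0.02, so no age stood out for the set as a whole. At 5 weeks feature 1105 was first (0.68 ± 0.21 SE, adjusted p 0.463), followed by feature 870 (0.52 ± 0.17 SE, adjusted p 0.463).

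**Figure D4:**
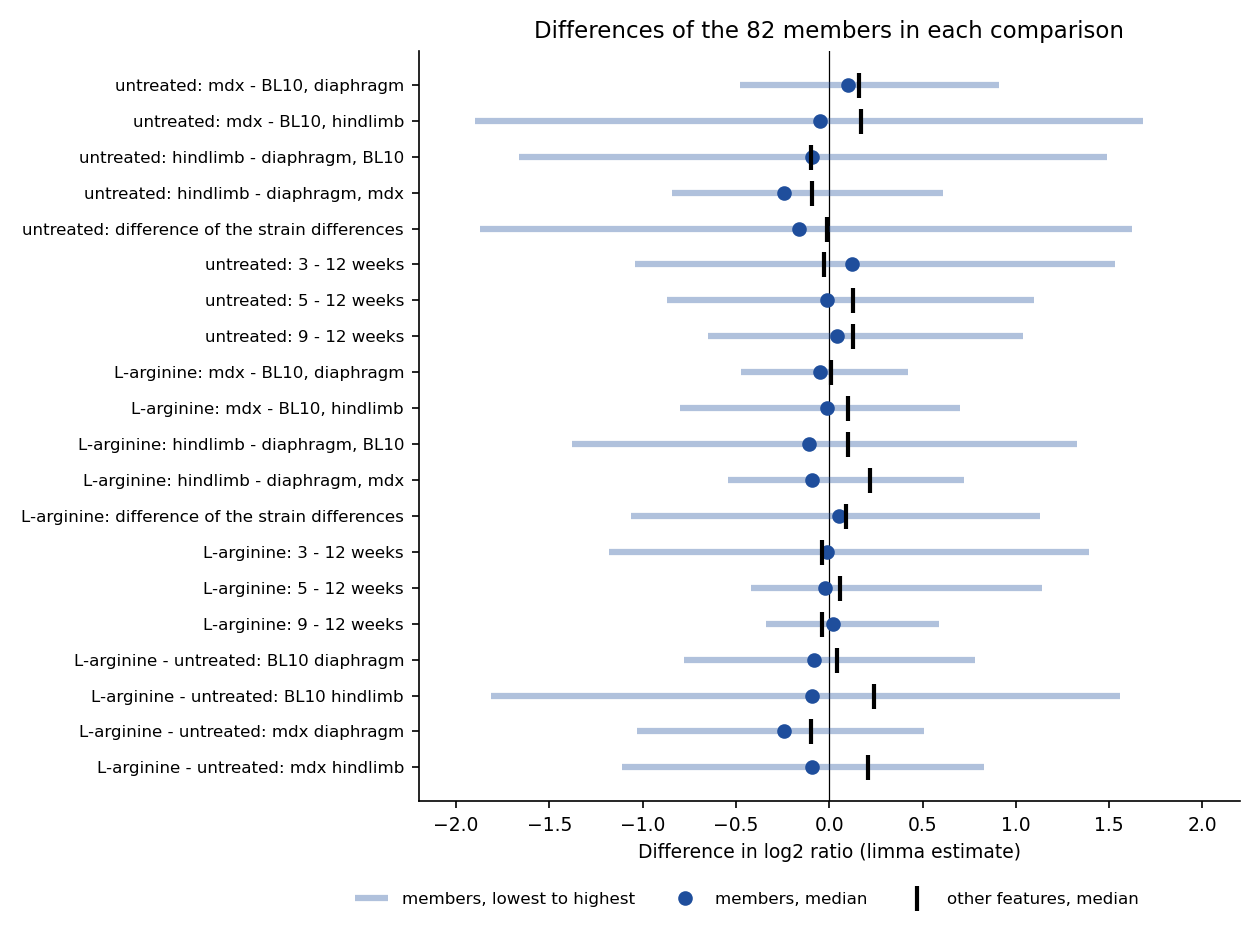
Differences in log2 ratio (limma estimates) of the 82 mitochondrial-genome features in each comparison, with the median (circles), the lowest to highest member (bars) and the median of the other features (vertical ticks). Member medians lie between -0.24 and 0.12, while single members span -1.90 to 1.68.

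The L-arginine table was set against the untreated table feature by feature, which answers how the ratios differed with treatment and table together. Feature numbers mean different spots in the 2 tables, since 6 of 682 numbers annotated in both carry the same entry. The features were matched through the regular layout of the annotation, in which 907 of 911 annotated features and all 82 members fall on their own entry in the other table. Since all members share 1 entry, this check shows a member matched to a member, but not to which. The pairing of single members rests on the layout, which was derived from features of other entries. The values themselves agreed little: the Spearman rho of the means over arrays between matched features was -0.12 over the members and 0.18 over the other features.

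In BL10 diaphragm 0 members were called between the tables, against 0.417% of all 1199 features, and 2 members had an unadjusted p under 0.05 (2.44%, against 9.26% of all features). In mdx diaphragm 0 members and 0.834% of all features were called, and 10 members had an unadjusted p under 0.05 (12.2%, against 14% of all features). The member medians, L-arginine minus untreated, were -0.08 and -0.24, and the second was -0.01 without the untreated 3-week array. Without Sample 1, 1 member was called in mdx diaphragm, with the share of all features not recorded. The other features had medians of 0.04 and -0.10.

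In BL10 hindlimb 4 of 82 members were called (4.88%, against 4% of all features), 1 higher and 3 lower in the L-arginine table. In mdx hindlimb 2 members were called (2.44%, against 2.84% of all features), 1 in each direction. These shares were close to those of all features. The member medians were -0.09 in both, with 0.24 and 0.21 over the other features.

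Cell markers were called in the same comparisons. In BL10 hindlimb 5 of 49 fibre features were called higher and 1 lower, 1 of 9 matrix features was called higher, and none of 9 macrophage features was called, with 0 at an unadjusted p under 0.05. In mdx hindlimb 3 of 9 matrix features (median difference 0.98), 1 of 9 macrophage features (median 0.85) and 1 of 49 fibre features (median 0.14) were called higher. None of the 4 adipocyte features was called in either (limma), with 0 and 3 at an unadjusted p under 0.05. The part of other cells in the member differences was not tested.

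Among the called members of BL10 hindlimb, the untreated arrays scattered more than the treated ones. The SD over untreated arrays was 1.43 for feature 89 (n = 3) and 1.63 for feature 260 (n = 4). The fit takes a shared spread per feature over all arrays, so the SE and adjusted p below can understate the uncertainty in this group. With array weights 2 calls remained, and features 260 and 715 were not called (limma, adjusted p 0.328 and 0.14). Feature 89 (926 in the L-arginine table) had 3.15, 0.90 and 0.51 untreated at 5, 9 and 12 weeks, with the 3-week array left out, and -0.12, -0.30, -0.45 and -0.15 treated at 3, 5, 9 and 12 weeks. The groups did not overlap, and the difference was -1.77 ± 0.38 SE (limma, adjusted p 0.0126). Feature 12 (405) had 2.72, 0.70 and 1.28 untreated, again without the 3-week array, and -0.27, -0.40, -0.25 and -0.04 treated (-1.81 ± 0.44 SE, adjusted p 0.0217). With the missing values at the lowest positive value of the array, the differences of these features were 0.26 and 0.25.

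Feature 715 (148) had 1.32, 0.86, 0.14 and 1.32 untreated and -0.17, -0.36, -0.34 and -0.07 treated (-1.14 ± 0.29 SE, adjusted p 0.0282). Again all treated values lay below all untreated values. Feature 260 (1144), the member called higher, had -1.89, 0.75, 0.04 and -2.74 untreated and 0.81, 1.17, 0.12 and 0.32 treated. These overlapped, and the difference was 1.56 ± 0.43 SE (adjusted p 0.0403). The count of 4 ranged from 1 to 9 when single arrays were left out, with the share of all features called not recorded. It was 2 without the untreated array at 3 or at 12 weeks, 7 without that at 5 weeks, 9 without that at 9 weeks, 7 without Sample 2 of untreated mdx hindlimb, and 1 without the treated array at 3 or at 5 weeks.

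In mdx hindlimb, feature 493 (672) had -0.17, -0.29 and -0.23 untreated at 3, 5 and 9 weeks and -0.07 and 0.20 on the 12-week arrays, against 0.43, 0.58, 0.60 and 1.13 treated. All treated values lay above all untreated ones (0.82 ± 0.21 SE, adjusted p 0.0323). Feature 572 (359) had 0.45, 0.45, 0.37, -0.43 and 0.59 untreated and -1.25, -0.40, -0.84 and -0.69 treated. Sample 1, at -0.43, reached into the treated values, and the difference was -1.11 ± 0.27 SE (adjusted p 0.0235). The count of 2 became 0 without the untreated array at 5 or at 9 weeks or the treated array at 9 weeks. It was 1 without the untreated array at 3 weeks or Sample 2, or the treated array at 3, 5 or 12 weeks. Here too the share of all features was not recorded.

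**Figure D5:**
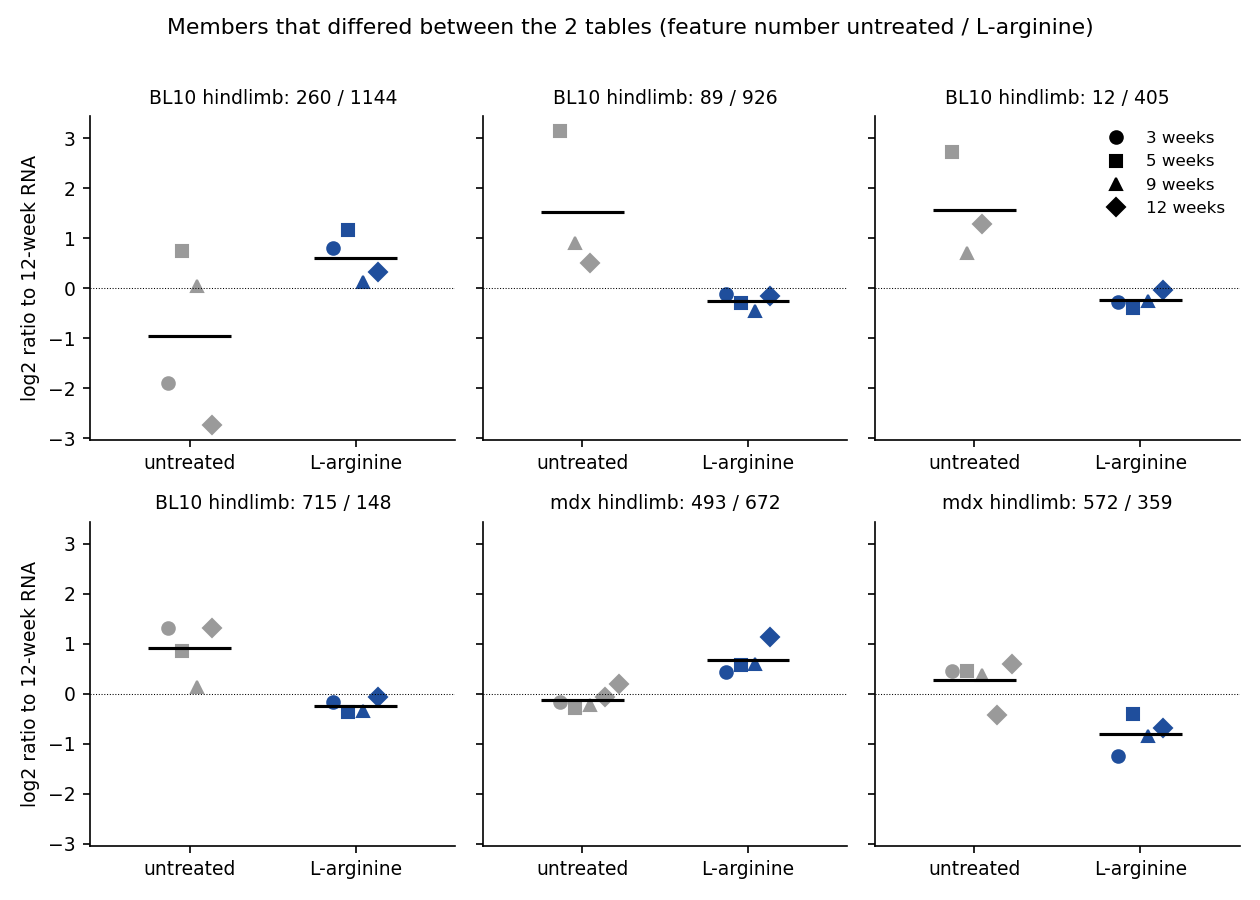
Log2 ratios of the 6 mitochondrial-genome features called between the tables, for the untreated (grey) and L-arginine (blue) arrays of the named strain's hindlimb, with the group mean (line) and the age as symbol. In BL10 hindlimb the untreated points spread widely, from -2.74 to 3.15, and the treated ones lie between -0.45 and 1.17.

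Averaged over the arrays of the untreated table, the member means ran from -0.38 to 0.29 with 46 of 82 below 0, and in the L-arginine table from -0.50 to 0.32 with 65 below 0. The lowest untreated were features 460 (-0.38 ± 0.87 SD, n = 18), 259 (-0.34) and 484 (-0.25), and the highest 12 (0.29), 715 (0.28) and 6 (0.27). Under L-arginine the lowest were 336 (-0.50 ± 0.45 SD, n = 16), 870 (-0.39) and 554 (-0.37), and the highest 33 (0.32), 1053 (0.31) and 1144 (0.30). The features matched to the lowest untreated members had means of -0.05, -0.14 and -0.22 under L-arginine, and those matched to the highest had -0.18, -0.13 and -0.11, so the order did not carry over.

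Of nuclear genes of the mitochondrion, a minority was on the array. Measured were 11 of 99 listed genes of the respiratory chain and ATP synthase, 5 of 38 of mitochondrial transcription, translation, import and biogenesis, 9 of 33 carriers and citrate cycle enzymes, and 2 of 17 genes of mitophagy and mitochondrial stress. None of their features was called in the 16 comparisons within a table (limma). For the first list, between 0 and 2 features of each comparison had an unadjusted p under 0.05. Between the tables, 1 of 14 features of the first list and 1 of 2 of the last were called, both in BL10 hindlimb, where 4% of all features were.

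Cox4i1, a nuclear subunit of cytochrome c oxidase, had -2.94, -1.40, -1.25 and -0.42 untreated and 0.91, 0.62, 0.51 and 0.06 under L-arginine at 3, 5, 9 and 12 weeks. The groups did not overlap (difference 2.03 ± 0.41 SE, adjusted p 0.00853). Bnip3l, a receptor by which mitochondria are marked for autophagy, had 0.34, 0.96 and 3.21 untreated at 5, 9 and 12 weeks and 0.07, -0.15, -0.64 and -0.36 treated (-1.79 ± 0.38 SE, adjusted p 0.0117). Its 3-week untreated array had no positive value and was left out. In the same comparison 1 of 11 ATP6 features was called higher, and of 8 COX2 features 1 was called higher and 1 lower, beside the 1 higher and 3 lower among the 82 members and 4% of all features in either direction.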

How the data were processed

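The deposited values are ratios of the channels of each 2-colour array made by the authors, taken as linear because array medians are near 1 and values of 0 or below occur. How they were scanned, dyed, background-corrected, normalised, scaled and directed was not given in any source used here. Groups and ages came from the sample titles per the labels. Positive ratios were turned into log2 with no further normalisation, and other values were left out. Features with a value on at least 75% of a table's arrays were tested by lmFit and eBayes of limma (version 3.58.1, R 4.3.3) and called under 0.05 after Benjamini-Hochberg adjustment over all features tested, with group and age as terms and all arrays of a table in 1 fit. The number of arrays limits the precision. Member medians per array and the correlations are descriptions without a test.

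Members and gene lists were chosen with earlier results of these data known. Named were, per comparison, up to 4 called members in each direction by adjusted p or otherwise the 2 with the smallest p, called genes of the 4 mitochondrial lists, the 5 genes most like the member median, and the 3 members with the highest and lowest mean. Some members with the smallest p are left to the counts. Members called out for their place on an array were chosen after their values were seen. Feature numbers did not carry the same annotation in both tables, so the planned comparison of tables by number was not made. The match by layout was chosen after seeing the data. It was derived from 599 entries with 1 feature in each table, of which 596 fell at the derived place. Code was tested on simulated data. Alternatives were other centring, quantile normalisation, a running median over 51 features, filters, array weights, and leaving out arrays.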

Additional observations from a re-analysis of the deposited data

Results flagged for a closer look

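In groups of 4 or 5 arrays, 24 sets of values were screened (the member median, its difference from the other features and the interquartile range). By Dixon's test 4 held an array far from the rest of its group, at a nominal rate of about 1 in 20. The sets share arrays and each group mixes ages, so 4 of 24 cannot be set against that rate. The member median of the untreated mdx diaphragm array at 3 weeks, 0.79, and its difference from the other features, 0.69, were the highest of their group, which otherwise ran from -0.16 to 0.01 and from -0.28 to -0.04. In treated BL10 hindlimb, the array at 5 weeks had a difference of -0.48, with the other 3 arrays between -0.20 and -0.19. In untreated BL10 diaphragm, the interquartile range over members was 0.41 at 3 weeks and 0.26 to 0.28 at the other ages. On that array the other features had an interquartile range of 0.98, so the whole array was wider. The untreated mdx hindlimb array at 3 weeks was not flagged.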

How the results depend on the processing

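Of 2637 recomputed values, 2537 were counted as kept. Single members were kept with the same sign and call, and counts of called members when equal or close. A median difference was kept when it moved by less than the residual SD over arrays (0.26 untreated, 0.09 under L-arginine, 0.19 between tables), whatever its sign. The untreated diaphragm strain median thus counted as kept at -0.11 against 0.10, so the share kept does not measure how stable the medians were. Counts of called members within a table were 0, except 1 with array weights in untreated hindlimb strains and in treated mdx tissues, and 4 for treated hindlimb strains with the running median subtracted. Between tables, array weights gave 3 in BL10 diaphragm, 2 in BL10 hindlimb and 5 in mdx hindlimb. Quantile normalisation gave 1 in BL10 diaphragm. In BL10 hindlimb the count was 7 with the running median subtracted, 2 with values on every array and 2 without 12-week arrays. In mdx hindlimb it was 1 under centring on all or on other features, quantile normalisation, the running median, low values at the array's lowest positive value, and without 12-week arrays. Leaving out single arrays gave 1 to 9 in BL10 hindlimb, 0 to 2 in mdx hindlimb and 0 to 1 in mdx diaphragm. The share of all features called was not recorded for these alternatives, so a change of the members alone cannot be told from one of all features. The causes were not tested.

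With values of 0 or below set to the array's lowest positive value, feature 89 reversed to 0.07 between hindlimb strains, -0.55 between BL10 tissues and 0.18 in the interaction, all untreated, and features 89 and 12 to 0.26 and 0.25 between tables. The member median of BL10 hindlimb between tables became 0.22. Other medians that moved were the untreated interaction without 12-week arrays (-0.47), treated mdx tissues (-0.24 and -0.26) and the treated interaction (-0.05 in both) under centring on all or on other features, and mdx diaphragm between tables under quantile normalisation (-0.02). Without single arrays the untreated 3-week median ran from -0.20 to 0.33 and mdx diaphragm between tables from -0.32 to -0.01.

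Per array, subtracting the running median moved the member median to 0.03 and -0.02 in untreated BL10 diaphragm at 3 and 9 weeks, 0.05 and 0.18 in untreated BL10 hindlimb at 3 and 12 weeks, 0.00 in treated BL10 diaphragm at 5 weeks, -0.08 in treated mdx diaphragm at 9 weeks, and -0.40 and -0.35 in treated mdx hindlimb at 5 and 12 weeks. The mean in place of the median gave -0.43 in untreated BL10 hindlimb at 3 weeks, and -0.11 and -0.01 in treated BL10 hindlimb at 5 and 12 weeks.

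Calls of single members held in 43 of 44 alternatives for feature 89, 40 of 44 for 12, 38 of 45 for 715, 35 of 45 for 260, 40 of 45 for 572 and 33 of 45 for 493, with adjusted p up to 0.898, 0.911, 0.14, 0.328, 0.0886 and 0.217. No paired analysis was possible because arrays of different groups share only an age, which is a term of the fit. The small number of arrays, mostly 1 per age and group, limits what a test could call.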

Other observations

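The features annotated to COX2 alone differed from those of ATP6 in the L-arginine table. Of 8, the median log2 ratio lay above that of the ATP6 features on every treated hindlimb array and on 7 of 8 treated diaphragm arrays, and their interquartile range over features, a median of 0.43, was wider than that of ATP6 (0.16). In the untreated table the COX2 median lay above the ATP6 median on 8 of 18 arrays, and these ranges were 0.42 and 0.28. As the COX2 features did not correlate with each other (median r 0.01 in both tables), whether they read 1 transcript was not tested.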
